A study of Mus musculus with 12 samples.

Results

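The data were RNA-seq counts of isolated mouse cardiomyocytes, and the comparison described here is nephrectomy against sham surgery averaged over saline and JV101 injection. All 12 of the 12 libraries of the series entered it: 6 from mice after sham surgery and 6 from mice after 5/6 nephrectomy (NX). The members were chosen by surgery group alone, with injection as an additive term, so that each NX library is set against sham libraries of the same injection. Wild-type C57BL6 mice were used in every group, and hearts were taken 16 weeks after surgery. The 4 groups of 3 libraries were sham with saline, sham with JV101, NX with saline and NX with JV101. The labels do not say what JV101 contains, nor its dose, route or time of injection, and they give neither sex nor age. They number the replicates without saying whether each came from its own mouse or from a pool, so the p-values measure the spread between these libraries, which may be partly technical.

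Removing most of the kidney tissue leaves a mouse with chronic renal failure, in which retained solutes, phosphate and volume load act on a heart that was not itself operated on. Such hearts are known for hypertrophy, fibrosis and a shift of fuel use, and the question of the comparison is which cardiomyocyte transcripts differ after nephrectomy whatever was injected. Cardiomyocytes burn mainly fatty acids, hold a dense contractile apparatus that needs chaperones for folding and repair, and depend on a wall of endothelial cells and fibroblasts that are smaller but more numerous.

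Library totals ran from 26.4 to 33.8 M counts. Mitochondrially encoded genes took 49.3 ± 12.02% of the counts in sham libraries and 49.1 ± 10.2% in NX libraries (mean ± SD, n = 6). None of 4 library measures (total counts, counts of nuclear genes, mitochondrial share, genes detected) differed between the surgeries by an exact permutation test within injection (2-sided; smallest Benjamini-Hochberg adjusted p = 0.83, where 400 arrangements allow an unadjusted p of 0.005 at the least). Levels are given in CPM, the reads of a gene relative to the library total after TMM scaling, which is not per length. Cardiomyocyte markers were abundant in every library: Myh6, the main myosin heavy chain of the mouse heart, ranged from 7977 to 22305 CPM in sham libraries (median 17595) and from 7252 to 16234 in NX libraries (median 13515). The 14 ventricular cardiomyocyte markers summed to between 36337 and 66209 CPM in sham and between 37292 and 59345 CPM in NX libraries. Other cells of the heart were present too. The 18 endothelial markers summed to between 603 and 3186 CPM in sham and between 1020 and 3403 CPM in NX libraries, and the 17 fibroblast markers to between 605 and 3223 CPM and between 1219 and 3404 CPM. In such bulk samples, fewer cells of a type and less RNA per cell cannot be told apart.

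Among the sham libraries, the first JV101 replicate stood apart. It had the highest fibroblast and endothelial marker scores among sham libraries (1.02 and 0.82, where a score averages, over the markers, how far log2 CPM lies from that gene's 12-library mean) and the lowest ventricular score of the 12 (−0.43). NX JV101 replicate 2 had the highest fibroblast score (1.12), an endothelial score of 0.86 and the lowest ventricular score (−0.40) among NX libraries. Sham JV101 replicate 3 was at the opposite end, with the lowest fibroblast and endothelial scores of all 12 (−1.48 and −1.51).

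No gene passed the test of the averaged nephrectomy effect. Among 14412 genes, edgeR's quasi-likelihood F test with Benjamini-Hochberg adjustment called 0 at 0.05 (0% of genes tested), with a smallest adjusted p of 0.831. DESeq2 and limma voom called 0 as well. At an unadjusted p under 0.05 edgeR listed 666 genes (4.62% of those tested), 261 higher (1.81%) and 405 lower (2.81%) after nephrectomy. Within saline mice 0 genes passed (524 at an unadjusted p under 0.05, 3.64%), within JV101 mice 0 (299, 2.07%), and for the difference between the injections 0 (256, 1.78%). All differences below are therefore described as values, with NX relative to sham on the log2 scale, ± SE from the edgeR fit. The adjusted p by edgeR's quasi-likelihood test was 0.831 for every gene whose difference is given with an SE, except Hspe1 (0.833), Arntl (0.869), Pot1a (0.8395), Terf2 (0.852) and Terf1 (0.866).

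For a gene of at least 10 CPM on average, the median SE was 0.13, so that 2 SE correspond to a 1.20-fold difference. The typical difference in these 6834 genes was of the same size or smaller (median absolute log2 difference 0.12). The number of libraries and their spread limited the comparison. After adjustment over all genes tested, differences well beyond that range, such as that of Rbm3 (0.59 ± 0.12), did not pass either.

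Although no gene passed alone, the differences after nephrectomy in saline mice and in JV101 mice, which share no library, resembled each other more in abundant genes. Across all 14412 genes 63.4% had the same sign under both injections (33.5% higher under both, 30% lower under both). The share was 68.7% among the 6834 genes of at least 10 CPM and 78.0% among the 800 genes of at least 100 CPM. Pearson's r across genes was 0.08 over all genes, 0.35 at 10 CPM and 0.49 at 100 CPM, and Spearman's rho 0.30, 0.52 and 0.61. These are descriptions across genes of the same libraries, and genes are not independent replicates. Deviations of single libraries from their group means, which hold no surgery difference, correlated between groups from −0.745 to 0.718 over the 6834 genes. A likeness of this size thus also occurred apart from surgery, and what it came from was not tested. Of the abundant genes, 52.6% were lower under both injections and 25.4% higher under both.

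**Figure D1:**
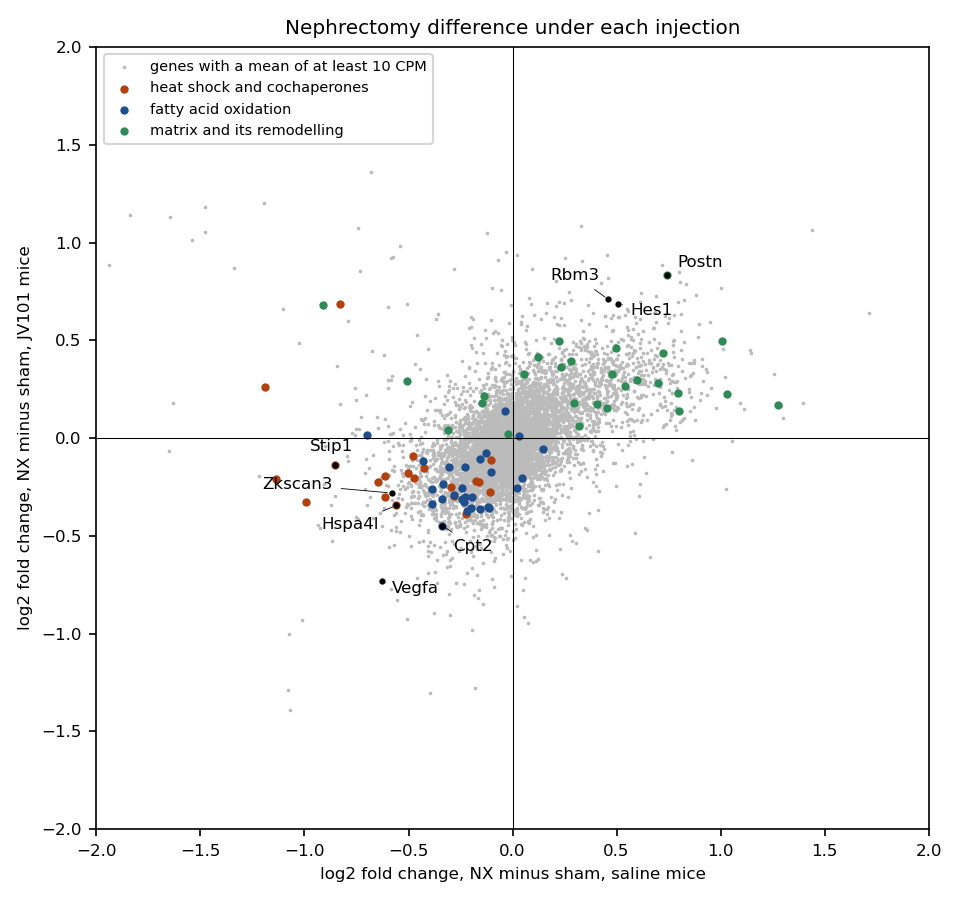
Log2 fold change of NX against sham in saline mice (horizontal axis) and JV101 mice (vertical axis). Each grey point is a gene of at least 10 CPM on average, coloured points are members of 3 lists, and 7 genes lie outside the axes of −2 to 2. Points gather along the lower left to upper right diagonal, with heat shock and fatty acid oxidation genes mainly in the lower left and matrix genes mainly in the upper right.

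The genes that reached an unadjusted p under 0.05 in saline mice and in JV101 mice separately, in the same direction, numbered 6 higher (0.0416% of genes tested) and 12 lower (0.0833%), with a further 7 in opposite directions (0.0486%). The 18 are 3.44% of the saline list and 6.02% of the JV101 list. The higher genes included Rbm3, Sertad1, D830026I12Rik, Ugt1a6a and Adipoq. Adipoq, at no more than 0.248 CPM in sham libraries, could pass the filter on low counts through its NX libraries alone. Its place here is therefore a description only, and Ugt1a6a averaged 0.30 CPM. The 12 lower genes were Vegfa, Adcy8, Rab30, Fv1, Mme, Atg16l2, Dcakd, Tesc, Nacc2, Gm46206 (0.19 CPM on average), Gm32113 and 4930481A15Rik. Another view of the same libraries is complete separation, in which all 6 NX libraries lie on the same side of all 6 sham libraries. Only 1 gene was separated upward (0.00694% of genes tested), Rbm3, and 8 were separated downward (0.0555%): Niban3, Map3k15, Zfp873, Zfp449, Guca1b, BC031361, LOC118567473 and Gm40124. With surgery labels placed at random, 1 of the 924 arrangements separates a gene in a given direction, a larger share than either of these.

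Rbm3 encodes a small RNA-binding protein that is induced by mild cold and is linked to translation and cell survival. Its level ranged from 18.2 to 27.3 CPM in sham libraries (median 23.01) and from 27.998 to 44.9 in NX libraries (median 32.95). Every NX library lay above every sham library, and sham saline replicate 3 and NX saline replicate 2 were the nearest to each other. The averaged difference was 0.59 ± 0.12 (a 1.5002-fold higher level, unadjusted p = 4.12e-04), made of 0.46 with saline and 0.71 with JV101. Cirbp, the other well-known cold-inducible RNA-binding protein, ranged from 9.81 to 28.8 CPM in sham libraries (median 15.3) and from 13.6 to 34.7 in NX libraries (median 19.5). Its groups overlapped and its difference was 0.35 ± 0.27.

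Sertad1, also higher under both injections, encodes a cofactor that binds cyclin-dependent kinase 4 and E2F, and ranged from 3.41 to 8.67 CPM in sham libraries (median 4.69) and from 6.08 to 10.8 in NX libraries (median 8.14). The highest sham value was that of JV101 replicate 1, and the other 5 sham libraries were below every NX library. The difference was 0.68 ± 0.18, at 0.67 with saline and 0.68 with JV101. Hes1, a repressor and classical target of Notch signalling, ranged from 8.85 to 12.9 CPM in sham libraries (median 10.5) and from 9.06 to 21.9 in NX libraries (median 17.3). All NX libraries but saline replicate 1 exceeded every sham library, and the difference was 0.60 ± 0.18.

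Slc25a1, the mitochondrial carrier that exports citrate for lipid synthesis, ranged from 2.08 to 4.35 CPM in sham libraries (median 2.75) and from 3.77 to 5.26 in NX libraries (median 4.73), with an overlap of the highest sham and lowest NX libraries. Its difference was 0.69 ± 0.19. Olfml2a, a secreted olfactomedin-domain protein, differed by 1.07 ± 0.30, Slc9a5, a sodium-proton exchanger, by 1.06 ± 0.32, and Slamf9, an immune receptor of myeloid cells, by 0.94 ± 0.27. Fam76b ranged from 5.93 to 9.03 CPM in sham libraries (median 7.29) and from 7.86 to 13.2 in NX libraries (median 10.2), and differed by 0.49 ± 0.14 (0.54 with saline and 0.45 with JV101). The unnamed transcript D830026I12Rik was low throughout, at 0.231 to 1.395 CPM in sham and 0.697 to 2.18 CPM in NX libraries.

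Vegfa, the growth factor with which cardiomyocytes maintain the capillaries around them, was the most abundant of the 12 genes lower under both injections. It ranged from 122 to 292 CPM in sham libraries (median 236) and from 108 to 189.96 in NX libraries (median 138). Sham JV101 replicate 1 had the lowest sham value and lay among the NX libraries, while the other 5 sham libraries were all above every NX library. The difference was -0.68 ± 0.19 (unadjusted p = 0.00319), at -0.63 with saline and -0.73 with JV101, and -0.80 without that library. It was -0.49 with the non-myocyte score as a covariate.

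**Figure D2:**
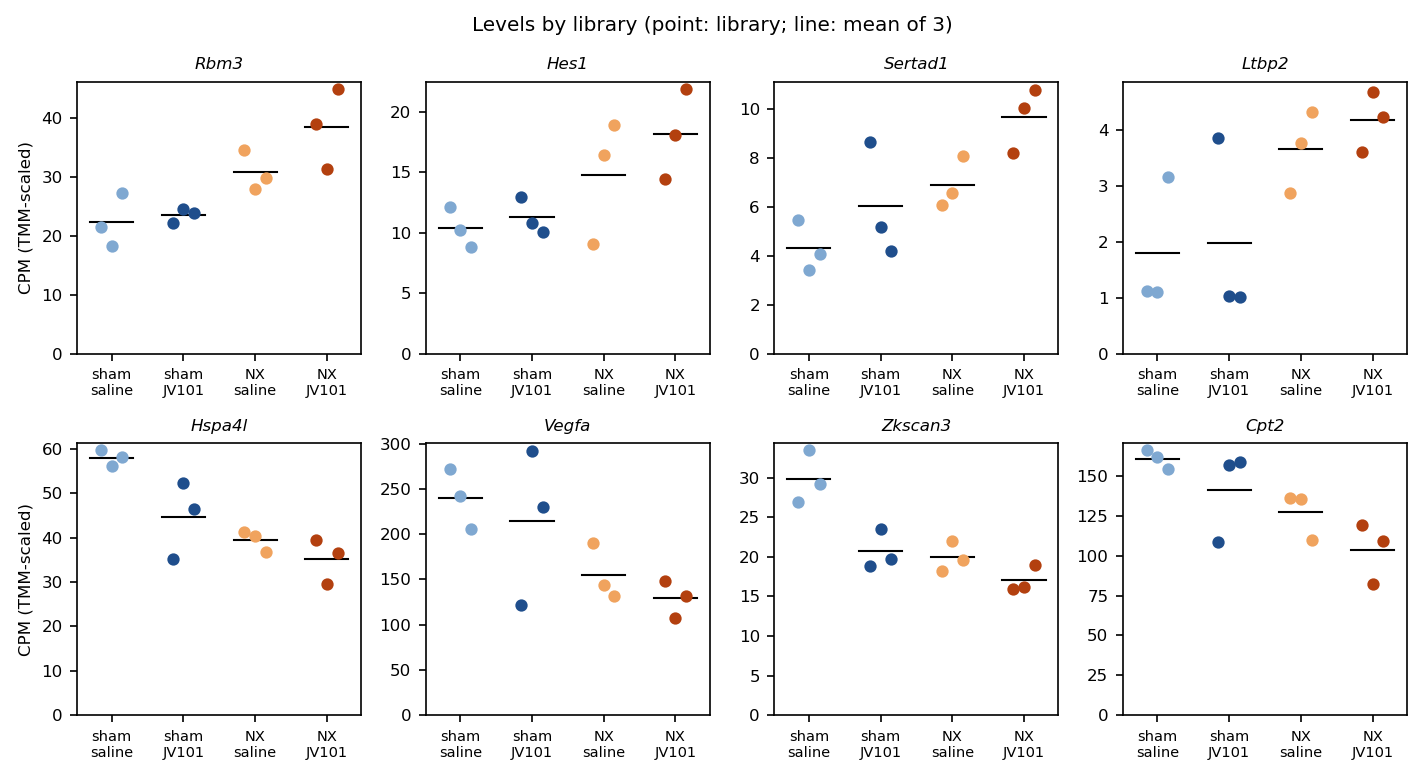
CPM of 8 genes in every library, by group. Each point is a library and each line the mean of 3. For Rbm3 all NX points lie above all sham points, and for Vegfa, Hspa4l and Cpt2 a single sham JV101 library lies among the NX points.

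Zkscan3, a zinc-finger repressor of autophagy genes, ranged from 18.9 to 33.5 CPM in sham libraries (median 25.3) and from 15.97 to 22.1 in NX libraries (median 18.6). Its highest 3 values were those of sham saline, the sham JV101 libraries overlapped the NX libraries, and the difference was -0.43 ± 0.11 (-0.58 with saline and -0.28 with JV101). Nacc2, a transcriptional corepressor, ranged from 17.2 to 26.3 CPM in sham libraries (median 23.6) and from 16.2 to 19.001 in NX libraries (median 17.6), and differed by -0.39 ± 0.10. Tesc, a calcium-binding regulator of the sodium-proton exchanger and of calcineurin, ranged from 44.8 to 62.2 CPM in sham libraries (median 59.96) and from 33.2 to 49.3 in NX libraries (median 44.5), and differed by -0.41 ± 0.11 (unadjusted p = 0.00318). For Nacc2 and Tesc, sham JV101 replicate 1 gave the lowest sham value, and without it the differences were -0.45 and -0.47. Adcy8, a calcium-stimulated adenylyl cyclase, was low, with 0.492 to 1.67 CPM in sham and 0.141 to 0.761 CPM in NX libraries, and differed by -1.27 ± 0.38.

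Mme, neprilysin, the membrane peptidase that degrades natriuretic peptides, ranged from 5.33 to 9.06 CPM in sham libraries (median 7.29) and from 4.39 to 6.53 in NX libraries (median 4.81). Its difference was -0.53 ± 0.13 (unadjusted p = 0.00127), nearly the same with saline (-0.51) as with JV101 (-0.54). Rab30, a Golgi GTPase, differed by -0.68 ± 0.17, and Dcakd, a protein with a kinase domain like that of coenzyme A synthesis, by -0.50 ± 0.13. Atg16l2, a relative of the autophagy gene Atg16l1, ranged from 5.82 to 7.04 CPM in sham libraries (median 5.94) and from 3.27 to 5.86 in NX libraries (median 4.06), and differed by -0.51 ± 0.15. Fv1, a restriction factor derived from a retroviral gene, differed by -0.59 ± 0.14, at levels of 5.01 to 8.43 CPM in sham and 3.84 to 5.99 CPM in NX libraries.

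Among the 8 genes separated downward, most were of low abundance. Niban3 ranged from 0.768 to 1.66 CPM in sham libraries (median 1.16) and from 0.162 to 0.589 in NX libraries (median 0.376). Its difference of -1.55 ± 0.34 came mainly from saline (-2.26, against -0.87 with JV101), and it was the only gene that DESeq2 called in saline mice. Map3k15, a kinase of the apoptosis signal-regulating family, ranged from 2.22 to 2.87 CPM in sham libraries (median 2.46) and from 1.27 to 2.08 in NX libraries (median 1.69), a difference of -0.56 ± 0.17. The zinc-finger genes Zfp873 and Zfp449 differed by -0.67 ± 0.19 and -0.50 ± 0.19. Guca1b, a guanylate cyclase activator best known from photoreceptors, was at 0.465 to 0.866 CPM in sham and 0.125 to 0.443 CPM in NX libraries.

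Chaperones had the lowest averaged median of the 45 pathway lists, although not in JV101 mice alone. These proteins fold new polypeptides and rescue damaged ones, and heat shock factor 1 switches many of them on. All 23 measured genes of the heat shock and cochaperone list were lower on average after nephrectomy (48.4% of all genes were), and 19 were lower under both injections (30% of all genes). The median difference was −0.31 (−0.50 with saline, −0.20 with JV101), beside 0.01 over all genes tested, and 10 of 23 reached an unadjusted p under 0.05 (43.5%, against 2.81% of all genes). For the difference between the injections 5 of 23 reached it (1.78% of all genes did). This list was known from earlier results to be lower after nephrectomy, so its direction is a description of these libraries.

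Nucleotide exchange factors and the cochaperones of Hsp90 led the list. Hspa4l, an exchange factor of the Hsp110 family, ranged from 35.2 to 59.9 CPM in sham libraries (median 54.3) and from 29.6 to 41.2 in NX libraries (median 38.1). Sham JV101 replicate 1 was the only sham library within the NX range, and the difference was -0.45 ± 0.11 (unadjusted p = 0.00156) and -0.53 without it. Hsph1, of the same family, ranged from 32.3 to 137 CPM in sham libraries (median 57.6) and from 25.6 to 55.1 in NX libraries (median 40.3), with a difference of -0.67 ± 0.29 (-1.14 with saline and -0.21 with JV101). Stip1, which joins Hsp70 to Hsp90, ranged from 56.1 to 118 CPM in sham libraries (median 85.96) and from 48.7 to 80.5 in NX libraries (median 59.9), and differed by -0.49 ± 0.17. The injections differed here by more than in most genes (-0.85 with saline and -0.14 with JV101, unadjusted p of the interaction = 0.0326).

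Further cochaperones and the chaperonin pair of the mitochondrion were lower too. Chordc1, an Hsp90 cochaperone, ranged from 20.9 to 53.5 CPM in sham libraries (median 31.4) and from 15.8 to 28.998 in NX libraries (median 25.5), and differed by -0.46 ± 0.19. Hspd1, the mitochondrial chaperonin, ranged from 189.8 to 289 CPM in sham libraries (median 267) and from 154 to 282 in NX libraries (median 195), and differed by -0.31 ± 0.12 (-0.23 with saline and -0.39 with JV101). Its partner Hspe1 differed by -0.20 ± 0.16, with an unadjusted p of 0.239. For all 3 the groups overlapped. Dnaja4, an Hsp40 cochaperone, ranged from 69.01 to 119 CPM in sham libraries (median 110.3) and from 71.3 to 86.8 in NX libraries (median 81.4), and Bag3, which maintains the Z-disc by chaperone-assisted autophagy, from 122 to 254 CPM in sham libraries (median 209) and from 128 to 176 in NX libraries (median 152). These differed by -0.34 ± 0.12 and -0.40 ± 0.15. Outside the list, 2 chaperones noticed among the smallest p values were lower: Unc45b, the myosin chaperone, by -0.42 ± 0.12, and Dnajb2 by -0.38 ± 0.10.

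The 4 members with opposite signs were Hspa1a, Hspa1b, Dnajb1 and Dnaja1. Hspa1a was -2.23 with saline and 2.11 with JV101, Hspa1b -3.07 and 2.26, Dnajb1 -0.83 and 0.69, and Dnaja1 -1.19 and 0.26. Each value sets 3 libraries against 3, and no gene passed adjustment within an injection or for the interaction by edgeR. Hspa1a and Hspa1b are near-identical copies, so their separate counts are uncertain.

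The heat shock score of a library ranged from −0.39 to 0.77 in sham libraries (median 0.08) and from −0.34 to 0.14 in NX libraries (median −0.13). Sham saline replicates 2 and 3 were highest (0.77 and 0.66), and the other 4 sham libraries lay between −0.39 and 0.25. With JV101 the score was not lower after nephrectomy (−0.39, 0.25 and −0.36 in sham, −0.30, 0.14 and −0.08 in NX libraries). Sham saline replicate 2 was also the library with the largest mitochondrial share (69.0%). Leaving out 1 library at a time moved the median of the list between −0.24 (without sham saline replicate 2) and −0.41 (without sham JV101 replicate 1), and the count at an unadjusted p under 0.05 between 4 (NX saline replicate 3 left out) and 13 (sham saline replicate 1 or sham JV101 replicate 1 left out), with at least 20 of 23 lower each time. It was 5 without sham JV101 replicate 2, and 6 without sham saline replicate 2 or 3, NX saline replicate 2 or NX JV101 replicate 1. Of all genes tested, 3.19% reached that threshold without sham saline replicate 1 and 17.1% without sham JV101 replicate 1. In the leave-out fits that gave 4, 5 or 6, between 2.45% and 5.07% of all genes did. With the non-myocyte score as a covariate the median was −0.32 and 12 reached that threshold, beside 589 of all 14412 genes. With clock phase 6 did, beside 1546 of all 14412 genes.

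The endoplasmic reticulum folding list leaned the same way, with 18 of 22 genes lower, a median of −0.19 (−0.25 with saline, −0.13 with JV101) and 2 at an unadjusted p under 0.05 (9.09%, against 2.81% of all genes). Hspa5, the main chaperone of the compartment, ranged from 309.7 to 635 CPM in sham libraries (median 426) and from 291 to 424 in NX libraries (median 335), and differed by -0.37 ± 0.14. Hyou1, its exchange factor, ranged from 25.5 to 63.2 CPM in sham libraries (median 40.1) and from 19.8 to 48.3 in NX libraries (median 26.1), and differed by -0.45 ± 0.20. In both genes the ranges overlapped, and Hsp90b1, the Hsp90 of the compartment, differed by -0.27 ± 0.13 with an unadjusted p of 0.0548. The count of lower genes at an unadjusted p under 0.05 was 0 without sham saline replicate 2, sham JV101 replicate 2 or NX saline replicate 2. It was 10 without NX JV101 replicate 2. Of all genes tested, 3.43%, 3.09%, 3.29% and 4.14% reached the threshold in either direction in those fits, in that order. With clock phase as a covariate 0 were lower and 1 higher (median −0.09), beside 1546 of all 14412 genes in either direction. With the non-myocyte score 12 were lower (median −0.35), beside 589 of all 14412 genes.

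Genes of fuel oxidation were mostly lower. In the fatty acid oxidation list 27 of 30 genes were lower on average and 24 under both injections. The median was −0.25 (−0.21 with saline, −0.28 with JV101, where it was below that of heat shock), and 3 reached an unadjusted p under 0.05 (10%, against 2.81% of all genes). Cpt2, which releases acyl groups inside the mitochondrion, ranged from 108 to 167 CPM in sham libraries (median 158) and from 82.3 to 136 in NX libraries (median 115). The other 5 sham libraries were all above every NX library, while sham JV101 replicate 1 had the lowest sham value and lay within the NX range. The difference was -0.39 ± 0.13 (unadjusted p = 0.00818), -0.46 without that library and -0.26 with the non-myocyte score as a covariate.

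Hadh, the dehydrogenase of short-chain β-oxidation, ranged from 283 to 485 CPM in sham libraries (median 447) and from 277 to 383 in NX libraries (median 332), and differed by -0.32 ± 0.13 (-0.39 with saline and -0.26 with JV101). Ech1, an isomerase for unsaturated acids, ranged from 646 to 951 CPM in sham libraries (median 912) and from 524 to 945 in NX libraries (median 696), and differed by -0.28 ± 0.13. Hadh again had its low sham value in JV101 replicate 1, and differed by -0.42 without it. Across the list, that library's score was −0.39 and the other sham scores lay between 0.10 and 0.26, against −0.45 to 0.14 in NX libraries. Without it the median of the list was −0.33, and 19 of 30 were at an unadjusted p under 0.05. So were 17.1% of all genes tested in that fit, 1168 lower and 1357 higher. The count of the list was 11 without NX saline replicate 1, where 7.22% of all genes tested reached the threshold. It was between 1 and 5 in the other 10 such fits, 6 of which gave 1. In those 10 fits between 2.45% and 5.07% of all genes tested reached the threshold.

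Branched-chain amino acid breakdown, the tricarboxylic acid cycle and glycolysis showed smaller differences in the same direction. Of 22 branched-chain genes 21 were lower (median −0.20, 4 at an unadjusted p under 0.05), of 23 cycle genes 22 (−0.14, 1) and of 26 genes of glucose uptake and glycolysis 23 (−0.13, 4). These counts are 18.2%, 4.35% and 15.4% of the lists, against 2.81% of all genes. Leaving out 1 library moved them between 1 and 12, 0 and 9, and 2 and 8, with the highest count each time without sham JV101 replicate 1 (medians −0.27, −0.23 and −0.20). Without that library 17.1% of all genes tested were at the threshold, 1168 lower and 1357 higher. In the other such fits between 2.45% and 7.22% were. Bcat2, the mitochondrial transaminase that starts the breakdown, ranged from 50.5 to 82.5 CPM in sham libraries (median 72.9) and from 52.1 to 62.2 in NX libraries (median 54.2), and differed by -0.34 ± 0.12. Mmut, methylmalonyl-CoA mutase, differed by -0.33 ± 0.13, and Mccc2, a carboxylase subunit of leucine breakdown, by -0.35 ± 0.14. Ogdh, the oxoglutarate dehydrogenase subunit of the cycle, ranged from 944 to 1893 CPM in sham libraries (median 1547) and from 998 to 1363 in NX libraries (median 1185), and differed by -0.38 ± 0.16, and Dlst, its partner subunit, by -0.29 ± 0.15.

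In glycolysis, Pfkl, the liver-type phosphofructokinase, ranged from 74.04 to 102 CPM in sham libraries (median 91.4) and from 62.9 to 85.4 in NX libraries (median 72.99), and differed by -0.29 ± 0.10. Pfkfb2, the heart enzyme that makes its activator fructose 2,6-bisphosphate, ranged from 64.2 to 129.7 CPM in sham libraries (median 86.8) and from 35.7 to 82.8 in NX libraries (median 67.6), and differed by -0.55 ± 0.22. Both ranges overlapped. Ak4, a mitochondrial adenylate kinase, differed by -0.48 ± 0.15 (unadjusted p = 0.00606). By contrast the nuclear genes of the respiratory chain, 23 of 37 lower with a median of −0.03 and 0 at an unadjusted p under 0.05, and the proteasome, 17 of 25 higher with a median of 0.03 and 0, were near the level of all genes.

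Markers of fibroblasts, endothelial cells and macrophages moved with these metabolic lists, in the opposite direction. The median of the fibroblast markers was 0.36 (17 of 17 higher), of the endothelial markers 0.48 (17 of 18) and of the macrophage markers 0.29 (18 of 19), with scores from −1.48 to 1.02, −1.51 to 0.82 and −1.36 to 0.79 in sham libraries and from −0.30 to 1.12, −0.79 to 0.93 and −0.35 to 0.93 in NX libraries. The ventricular markers had 12 of 14 lower (median −0.10, scores −0.43 to 0.39 in sham and −0.40 to 0.25 in NX). Of the 14, 7 were lower under both injections and 7 had opposite signs. Summed macrophage markers were at 182 to 857 CPM in sham and 346 to 929 CPM in NX libraries. Other non-myocyte lists were mixed. Of the mural and smooth muscle markers 12 of 14 were higher (median 0.41). Of the lymphocyte markers 9 of 10 were lower (−0.46), and of the mesothelial markers 6 of 12 (0.02). With the non-myocyte score as a covariate, a choice made after the data were seen, the median of fatty acid oxidation was −0.10 (28 of 30 lower), of branched-chain breakdown −0.05, of the tricarboxylic acid cycle −0.01 and of glycolysis 0.01. Heat shock, at −0.32, was the list among these that kept its size.

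**Figure D3:**
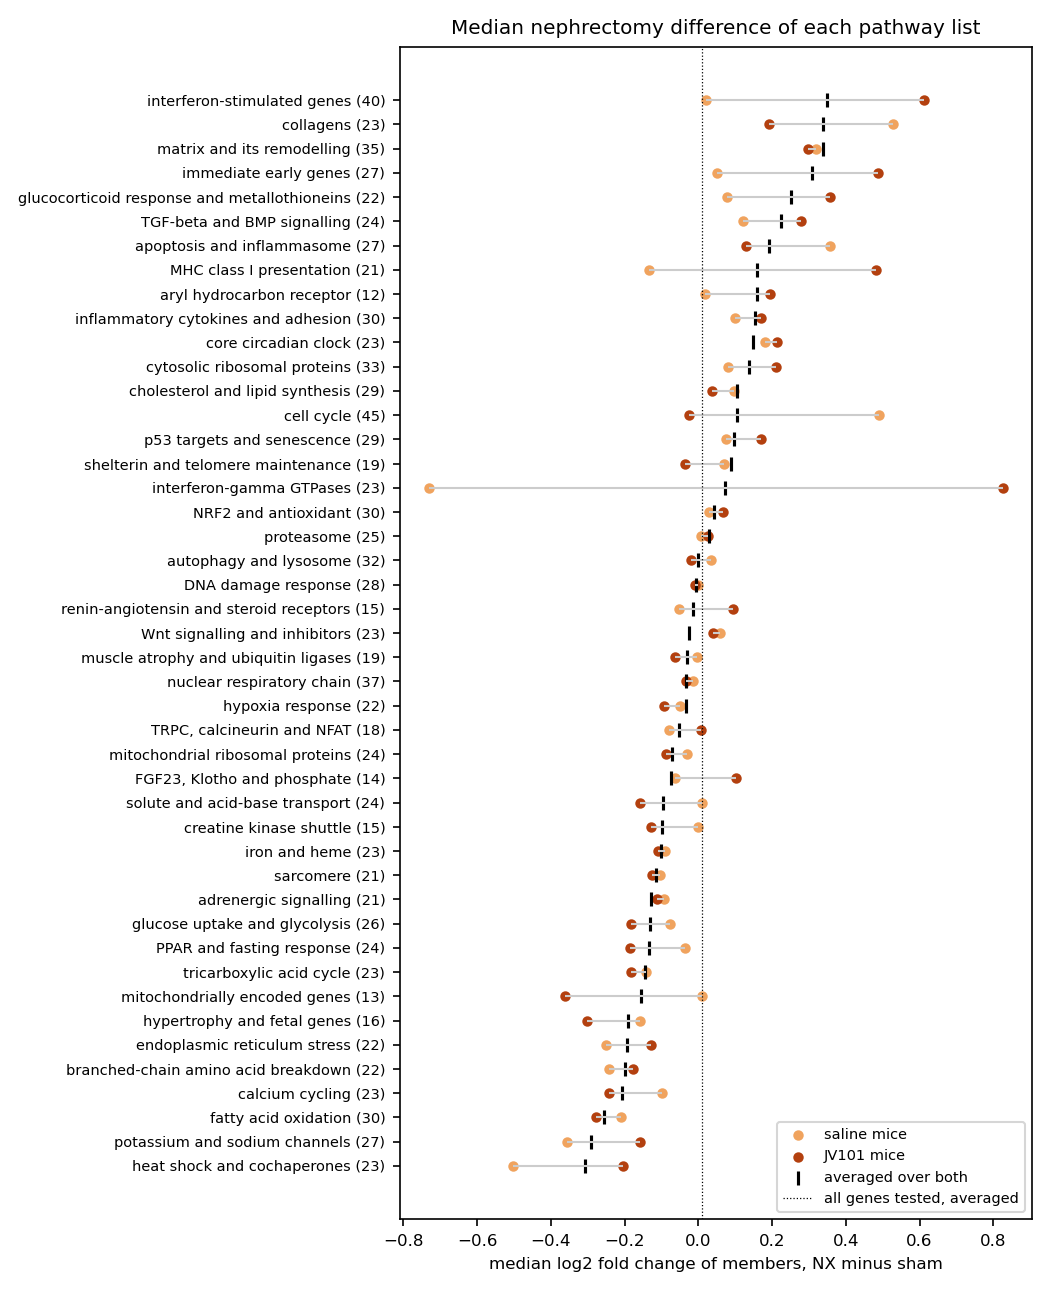
Median log2 fold change of NX against sham of the members of each of 45 pathway lists (number measured in brackets), in saline mice (light points), JV101 mice (dark points) and averaged (bars), with the median of all genes tested as a dotted line. Among the bars heat shock is lowest at −0.31 and interferon-stimulated genes highest at 0.35, and the interferon-gamma GTPases lie on opposite sides of 0 for the 2 injections.

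Hypoxia and heme genes did not form a uniform group. Of 22 hypoxia genes 12 were lower and 10 higher (median −0.03), with 3 lower and 1 higher at an unadjusted p under 0.05. The shares are 13.6% and 4.55%, against 2.81% and 1.81% of all genes. Besides Vegfa, P4ha2, a collagen prolyl hydroxylase, was lower, ranging from 24.8 to 47.05 CPM in sham libraries (median 38.9) and from 21.3 to 34.5 in NX libraries (median 28.4), a difference of -0.44 ± 0.15. Alas1, which makes the precursor of heme, ranged from 104 to 184 CPM in sham libraries (median 171) and from 76.8 to 145 in NX libraries (median 112), and differed by -0.48 ± 0.17, within a heme and iron list of which 17 of 23 were lower (median −0.10).

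Contractile and electrical lists had more genes lower than higher, which for the sarcomere did not hold with the non-myocyte score as a covariate. The sarcomere list had 17 of 21 lower (median −0.11, 1 at an unadjusted p under 0.05), calcium cycling 16 of 23 (−0.21, 2) and potassium and sodium channels 21 of 27 (−0.29, 2), and the hypertrophy and fetal gene list 13 of 16 (−0.19, 2). Fewer were lower under both injections: 11, 12, 19 and 6, while 8, 7, 4 and 10 had opposite signs (5268 of all 14412 genes did). The counts at an unadjusted p under 0.05 are 4.76%, 8.70%, 7.41% and 12.5% of the lists, against 2.81% of all genes. Without sham JV101 replicate 1 they were 6, 9, 10 and 5, where 17.1% of all genes tested reached the threshold (1168 lower and 1357 higher). With that covariate the medians were 0.06 (14 of 21 higher), −0.02, −0.03 and −0.04, and the hypertrophy median was 0.03 without NX saline replicate 3. Xirp1, an actin-binding protein of the intercalated disc that responds to load, ranged from 106 to 341 CPM in sham libraries (median 264) and from 133 to 209.9 in NX libraries (median 155), and differed by -0.58 ± 0.19 (unadjusted p = 0.00978). Its relative Xirp2 differed by -0.39 ± 0.17 and Rcan1, the feedback inhibitor of calcineurin that is itself a calcineurin target, by -0.52 ± 0.25 (unadjusted p = 0.0552). In all 3 the sham and NX libraries overlapped.

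Myh7b, a slow myosin heavy chain, ranged from 23.5 to 98.1 CPM in sham libraries (median 67.6) and from 11.7 to 55.4 in NX libraries (median 36.4), and differed by -0.85 ± 0.37 (-0.40 with saline and -1.30 with JV101). Ryr2, the calcium release channel of the sarcoplasmic reticulum, ranged from 539 to 1344 CPM in sham libraries (median 1282) and from 489 to 957 in NX libraries (median 849), and differed by -0.49 ± 0.22. For Ryr2 the lowest library of each arm, sham JV101 replicate 1 and NX JV101 replicate 2, was well below the others of its arm. Cacna2d1, a subunit of the L-type calcium channel, had the same 2 low libraries and differed by -0.45 ± 0.20. The difference of Ryr2 was -0.22 and that of Cacna2d1 -0.16 with the non-myocyte score as a covariate, and -0.63 and -0.57 without sham JV101 replicate 1. That of Myh7b was -0.37 with the same covariate.

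The channel genes with the smallest p were Kcne1, the subunit that slows the IKs channel, and Kcnv2, a silent potassium channel subunit. Kcne1 ranged from 0.981 to 2.2004 CPM in sham libraries (median 1.49) and from 0.433 to 1.18 in NX libraries (median 0.92002), and differed by -0.79 ± 0.28. Kcnv2 ranged from 4.02 to 10.9 CPM in sham libraries (median 8.48) and from 2.78 to 7.13 in NX libraries (median 5.78), and differed by -0.61 ± 0.24. With the non-myocyte score as a covariate Kcnv2 differed by -0.27. Among transporters, Slc4a3, the chloride-bicarbonate exchanger of cardiomyocytes, differed by -0.49 ± 0.22.

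Matrix genes were mostly higher. Of 23 collagens 22 were higher on average (51.6% of all genes were; median 0.34, 0.53 with saline and 0.19 with JV101), and of 35 genes of matrix and its remodelling 31 (median 0.34, 0.32 and 0.30), each with 1 gene at an unadjusted p under 0.05 (4.35% and 2.86%, against 1.81% of all genes). Ltbp2, a microfibril protein related to the binders of latent TGF-beta, ranged from 1.02 to 3.86 CPM in sham libraries (median 1.11) and from 2.88 to 4.69 in NX libraries (median 4.002). The high sham values were saline replicate 3 and JV101 replicate 1, and the other 4 sham libraries were below every NX library. Its difference was 1.04 ± 0.36 (1.01 with saline and 1.07 with JV101), and 1.44 without sham JV101 replicate 1. Postn, periostin, the marker of activated fibroblasts, ranged from 5.99 to 35.6 CPM in sham libraries (median 13.99) and from 13.3 to 45.3 in NX libraries (median 27.7), and differed by 0.79 ± 0.38 (unadjusted p = 0.0617).

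Col8a1, a short-chain collagen, ranged from 4.82 to 27.8 CPM in sham libraries (median 8.16) and from 13.4 to 23.9 in NX libraries (median 17.4), and differed by 0.79 ± 0.35, and Col14a1 differed by 0.60 ± 0.32. Of the TGF-beta and BMP signalling list 18 of 24 genes were higher (median 0.22). Smad6, the inhibitor of BMP signalling, was higher by 0.62 ± 0.23, while the BMP receptor Bmpr1a was lower by -0.28 ± 0.12. In the endothelial list Sox17, a transcription factor of arterial endothelium, ranged from 4.97 to 17.6 CPM in sham libraries (median 11.4) and from 7.73 to 30.3 in NX libraries (median 21.01), and differed by 0.81 ± 0.33. Cd300lg, a receptor of capillary endothelium, differed by 0.80 ± 0.38, and Mcam, an adhesion molecule of vessel walls, by 0.54 ± 0.29. Among macrophage markers Timd4, a phosphatidylserine receptor of resident macrophages, differed by 0.74 ± 0.29.

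These lists moved with the summed markers given above. With the non-myocyte score as a covariate, which was built from such markers, the medians were 0.04 for collagens, 0.02 for matrix, 0.03 for endothelial and −0.05 for fibroblast markers. Without sham JV101 replicate 1 they were 0.60, 0.61, 0.75 and 0.73, with 11, 15, 10 and 9 genes at an unadjusted p under 0.05. In that fit 17.1% of all genes tested reached the threshold, 1357 higher and 1168 lower.

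**Figure D4:**
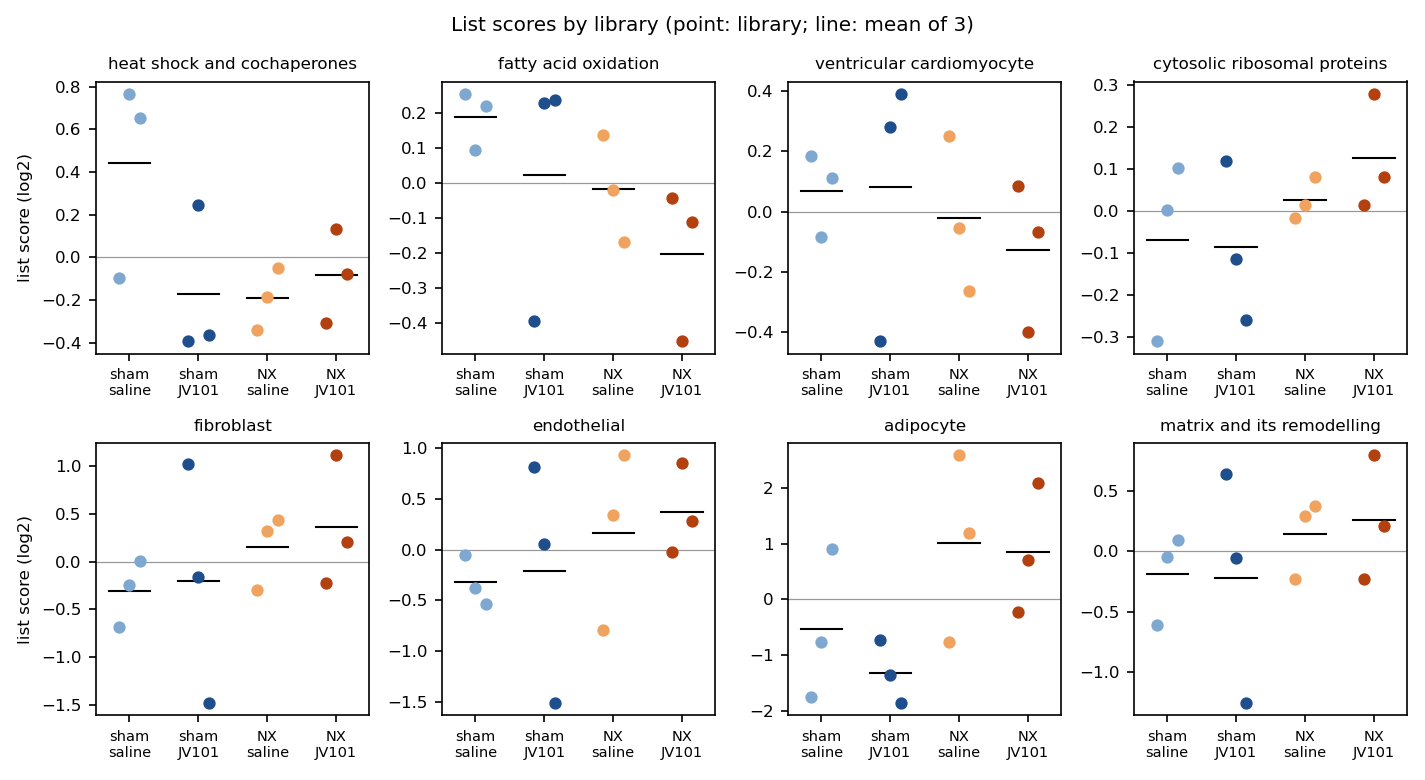
List score (average distance of the members' log2 CPM from their 12-library means) of 8 lists in every library, by group, with a point for a library and a line for the mean of 3. Sham JV101 replicate 1 has a fibroblast score of 1.02 and a fatty acid oxidation score of −0.39, and the groups overlap in all 8 lists.

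Ribosomal protein genes differed little but in a uniform direction. Of 33 cytosolic ribosomal protein genes 32 were higher on average and 31 under both injections (33.5% of all genes). The median was 0.14 (0.08 with saline, 0.21 with JV101), and 1 gene was at an unadjusted p under 0.05 (3.03%, against 1.81% of all genes). Rpl3, of the large subunit, ranged from 75.6 to 141 CPM in sham libraries (median 86.6) and from 105 to 159.8 in NX libraries (median 126), and differed by 0.43 ± 0.16. Many ribosomal protein genes have processed pseudogenes that can take their reads, so single members are uncertain. With the non-myocyte score as a covariate the median was 0.07 (31 of 33 higher).

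Cdk2, a kinase of DNA replication, ranged from 3.62 to 7.19 CPM in sham libraries (median 4.35) and from 6.34 to 9.97 in NX libraries (median 6.62), and differed by 0.57 ± 0.19 (0.91 with saline and 0.24 with JV101), and Cdc25b, a phosphatase that activates such kinases, by 0.84 ± 0.38. The median of the cell cycle list was 0.49 with saline and −0.02 with JV101, with 24 of 45 members of opposite sign. Btg2, an antiproliferative p53 target, ranged from 84.3 to 133 CPM in sham libraries (median 110.1) and from 64.9 to 209.8 in NX libraries (median 170.1), and differed by 0.51 ± 0.23. Bax, the pore-forming death effector, differed by 0.35 ± 0.16 and Bcl2l1, its antagonist, by 0.51 ± 0.26 (unadjusted p = 0.0708). Egr1, an immediate early transcription factor, ranged from 97.5 to 293 CPM in sham libraries (median 192) and from 199 to 371 in NX libraries (median 289), and differed by 0.52 ± 0.25. The p53 and senescence list had 21 of 29 higher (median 0.10) and the apoptosis list 23 of 27 (0.19, and −0.06 with the non-myocyte score as a covariate). Under both injections 14 and 16 of these lists were higher, and 13 and 9 had opposite signs.

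Genes of adipose tissue were low in most sham libraries and varied in NX libraries. Of 13 adipocyte markers 10 passed the filter on low counts, which a marker could pass through its NX libraries alone, so that their median of 2.61 (1.75 with saline, 3.89 with JV101) describes only those 10. Over the 3 markers with a mean of at least 5 CPM it was 0.36. Cfd, complement factor D or adipsin, ranged from 0 to 1.58 CPM in sham libraries (median 0.259) and from 0.886 to 6.96 in NX libraries (median 3.13). Its groups overlapped through the highest sham library, and the difference was 3.19 ± 0.85 (unadjusted p = 0.00254). Car3, a carbonic anhydrase abundant in fat, ranged from 0.128 to 3.56 CPM in sham libraries (median 0.229) and from 0.444 to 14.7 in NX libraries (median 4.14), and Pck1, the glyceroneogenic enzyme, from 0.02995 to 1.67 CPM in sham libraries (median 0.2298) and from 0.285 to 10.1 in NX libraries (median 2.03). Adipoq, the adipose hormone adiponectin, was at 0 to 0.248 CPM in sham and 0.0634 to 2.13 CPM in NX libraries, which is too few counts in most sham libraries for a fold.

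Levels of these fat genes varied greatly within an arm. The adipocyte score ranged from −1.85 to 0.89 in sham and from −0.76 to 2.58 in NX libraries. Sham saline replicate 3 was the high sham library, and NX saline replicate 2 and NX JV101 replicate 3 were the highest of all. Summed over all 13 markers, of which Fabp4, also an endothelial gene, is the most abundant, they reached 127 to 765 CPM in sham and 208 to 863 CPM in NX libraries. The median of the 10 was 2.20 with the non-myocyte score as a covariate, 1.97 with clock phase, 3.97 without sham saline replicate 3, and 1.91 without NX saline replicate 2. Scd1, the desaturase of lipid synthesis, was also higher, ranging from 2.73 to 25.6 CPM in sham libraries (median 11.6) and from 10.5 to 71.2 in NX libraries (median 22.9), a difference of 1.25 ± 0.56.

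Clock genes varied widely between the libraries of each arm. The heart's clock is driven by Arntl (Bmal1), and Dbp is a strongly rhythmic output with the opposite phase. Dbp ranged from 8.26 to 57.4 CPM in sham libraries (median 11.3) and from 6.999 to 79.1 in NX libraries (median 46.8), and Arntl from 1.08 to 12.6 CPM in sham libraries (median 9.35) and from 0.9196 to 14.8 in NX libraries (median 3.71). High Dbp with low Arntl marked sham JV101 replicate 3, NX saline replicate 2 and NX JV101 replicates 1 and 3. The differences were 1.17 ± 0.61 for Dbp and -0.46 ± 0.66 for Arntl. The labels give no time of day for the collection of the hearts.

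Of the clock list 16 of 23 genes were higher and 7 lower, with 1 higher and 2 lower at an unadjusted p under 0.05. These are 4.35% and 8.70% of the list, against 1.81% and 2.81% of all genes. Bhlhe40, a repressor within the loop, ranged from 27.9 to 51.1 CPM in sham libraries (median 31.9) and from 32.5 to 59.98 in NX libraries (median 44.6), and differed by 0.37 ± 0.12. Nfil3, which opposes Dbp at its sites, ranged from 6.13 to 34.7 CPM in sham libraries (median 21.1) and from 6.23 to 18.3 in NX libraries (median 9.87), and differed by -0.86 ± 0.36, with -1.65 in saline mice and -0.06 in JV101 mice (unadjusted p of the interaction = 0.0155). With log2 Dbp minus log2 Arntl as a covariate, added after the data were seen, the differences were 0.54 for Rbm3, -0.72 for Vegfa, -0.50 for Hspa4l and -0.50 for Cpt2. Others were closer to 0 than before, at 0.08 for Cirbp, -0.29 for Rcan1, -0.28 for Hyou1 and -0.45 for Hsph1. The median of the heat shock list was −0.22, above those of the channels (−0.46) and fatty acid oxidation (−0.35).

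Among genes of hormone and xenobiotic response, Sult1a1, a sulfotransferase that handles phenolic compounds, ranged from 8.87 to 25.6 CPM in sham libraries (median 13.2) and from 11.7 to 28.8 in NX libraries (median 26.002), and differed by 0.67 ± 0.27 (0.69 with saline and 0.65 with JV101). Klf9, a direct glucocorticoid target, ranged from 74.6 to 109 CPM in sham libraries (median 89.2) and from 75.4 to 129 in NX libraries (median 120.4), and differed by 0.32 ± 0.15. Ephx1, microsomal epoxide hydrolase, ranged from 15.9 to 49.3 CPM in sham libraries (median 20.8) and from 21.7 to 49.9 in NX libraries (median 42.7), and differed by 0.68 ± 0.23. In Sult1a1 and Ephx1 the NX median exceeded the sham median, but the ranges overlapped. Ahrr, the repressor induced by the aryl hydrocarbon receptor, differed by -0.49 ± 0.26, and its list had 8 of 12 higher (median 0.16, and −0.16 with the non-myocyte score as a covariate, 0 at an unadjusted p under 0.05).

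Receptors and transporters of the kidney-to-heart mineral axis were measurable at low levels. Pth1r, the receptor for parathyroid hormone and its related peptide, ranged from 2.04 to 4.404 CPM in sham libraries (median 3.41) and from 2.57 to 10.02 in NX libraries (median 5.62), and differed by 0.83 ± 0.29, at 0.83 with saline and 0.82 with JV101. With the non-myocyte score as a covariate Pth1r differed by 0.42. Fgfr2, a receptor for fibroblast growth factors, was at 0.0577 to 0.691 CPM in sham and 0.3299 to 1.25 CPM in NX libraries, a difference of 1.31 ± 0.52. Slc20a1, a sodium-phosphate cotransporter, ranged from 15.5 to 25.8 CPM in sham libraries (median 20.3) and from 14.4 to 19.1 in NX libraries (median 16.3), and differed by -0.27 ± 0.10. The list of FGF23, Klotho and phosphate genes had 5 of 14 higher and 9 lower. Hmgcs1, an enzyme of cholesterol synthesis, differed by -0.23 ± 0.10.

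The title of the series concerns telomere recapping, and the shelterin complex, which caps telomeres, was examined with its maintenance factors. Of 19 measured genes 11 were higher and 8 lower (median 0.09), and 0 reached an unadjusted p under 0.05. Pot1a, the single-strand binder, ranged from 5.36 to 8.05 CPM in sham libraries (median 6.25) and from 5.51 to 8.79 in NX libraries (median 7.53), and differed by 0.18 ± 0.15 with an interval of ± 2 SE from -0.12 to 0.47. Ctc1, of the CST complex that finishes the telomere end, ranged from 8.02 to 10.9 CPM in sham libraries (median 8.94) and from 7.15 to 8.80 in NX libraries (median 8.303), and differed by -0.16 ± 0.11, from -0.37 to 0.05. Both intervals include 0. Terf2, the shelterin member that keeps ends from being joined, differed by 0.12 ± 0.14, and Terf1 by 0.23 ± 0.31 (-0.15 with the non-myocyte score as a covariate).

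The counts above depended on single libraries. Leaving out sham JV101 replicate 1 gave 2525 genes at an unadjusted p under 0.05 (17.1% of those tested) in place of 666, with 0 passing adjustment (smallest adjusted p by edgeR = 0.124), and 134 genes separated upward and 197 downward. Leaving out NX saline replicate 1 gave 1075 and leaving out NX saline replicate 3 gave 364, and each of the other 9 gave between 461 and 752.

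**Figure D5:**
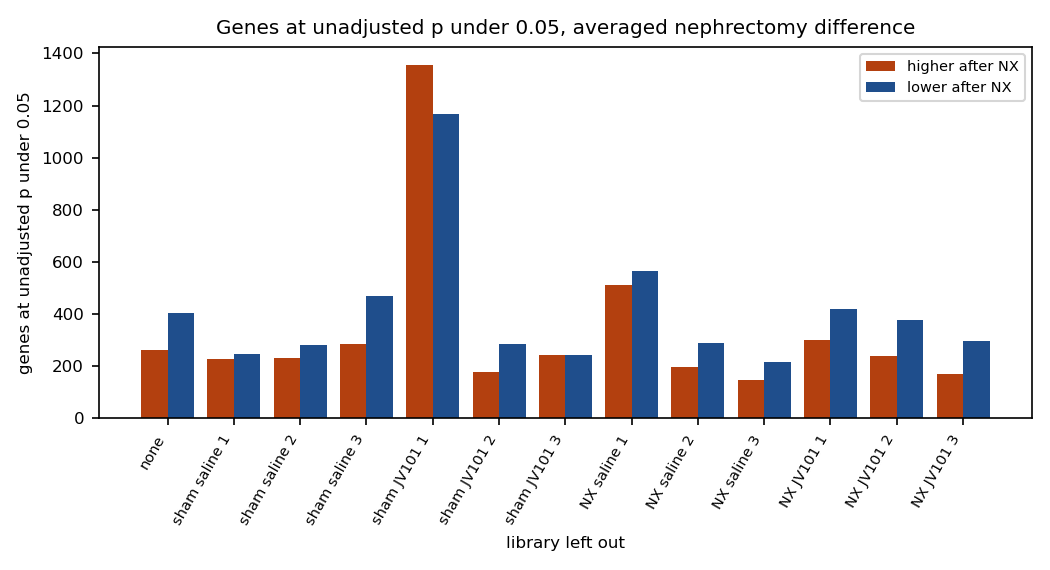
Number of genes at an unadjusted p under 0.05 in the averaged comparison with all libraries (none) and with each library left out, as bars from 0 for genes higher and lower after nephrectomy. The bars without sham JV101 replicate 1 reach 1357 and 1168, and all others stay at 564 or below.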

How the data were processed

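RNA of isolated cardiomyocytes was sequenced as polyA libraries. Counts per gene and FPKM of the 12 libraries are as the authors deposited them. The submitters' processing notes name fastp, HISAT2, HTSeq and GRCm39. For versions, annotation and use of strand in counting, nothing is stated in the labels. The deposited counts (22794 genes) were tested and the deposited FPKM served only as an alternative. Columns were assigned to samples through the column names that the labels quote.

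Genes were filtered with edgeR's filterByExpr (minimum count 10, total 15), leaving 14412, scaled with TMM and fitted with edgeR 4.0.16 (R 4.3.3) as injection plus surgery over all 12 libraries. Within-injection and interaction contrasts came from a fit of the 4 groups. The 2-sided quasi-likelihood p was adjusted by Benjamini-Hochberg with 0.05 as the threshold. The SE is the absolute log2 difference divided by the square root of F. The scripts were tested on simulated data.

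The members and lists (59, with 1204 measured members; 45 pathways and 14 cell types) were chosen with earlier results of these data known. Genes were named as the 10 of smallest p on each side with the same sign under both injections and at least 1 CPM on average, and up to 3 such members of each list. Some genes that this rule gives are not reported here. Other named genes were chosen after their values were seen: those separated between the surgeries or at an unadjusted p under 0.05 under both injections, Unc45b, Dnajb2, Pck1, Cirbp, Dbp, Arntl, Myh6, Terf1, Terf2 and the further heat shock genes. Symbols were looked up in RefSeq and GENCODE tables of GRCm38, where 22119 (97.0%) were found. That build is older than the data's, so no coordinates are given.

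Alternatives were DESeq2 1.42.0, limma 3.58.1 (voom with sample weights, and log2 FPKM with pseudocounts of 1 and 0.1), upper-quartile and RLE factors, a mean of at least 5 CPM or no filter, a threshold of 0.01, surgery alone, the mean of the within-injection contrasts, the mitochondrial share as a covariate, counts without mitochondrially encoded genes, the replicate number as a block and leaving out each library. Covariates for clock phase and non-myocyte score, and leaving out sham saline 2 and NX saline 3 together (the smallest counts of nuclear genes), were added after the data were seen.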

Additional observations from a re-analysis of the deposited data

Results flagged for a closer look

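In each arm of 6 libraries, a highest or lowest library was picked out when its gap to the nearest other exceeded 0.625 of the arm's range (Dixon's test). This held in 32 of 346 measures (9.25%), each the level of a gene or the score of a list in an arm, and chance picks about 1 in 20. Sham JV101 replicate 1 accounted for 14 and NX JV101 replicate 2 for 6.

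Sham JV101 replicate 1 was the lowest sham library for muscle and fuel genes, at 7977 CPM for Myh6, 539 CPM for Ryr2, 59.6 CPM for Cacna2d1, 108 CPM for Cpt2, 283 CPM for Hadh, 27.2 CPM for Mccc2 and 944 CPM for Ogdh. It was also lowest for Nacc2 (17.2 CPM), Dnajb2 (43.7 CPM), Bag3 (122 CPM) and Tesc (44.8 CPM) and highest for Bax (13.2 CPM). Its list scores were −0.392 for fatty acid oxidation and −0.257 for branched-chain amino acid breakdown. NX JV101 replicate 2 was the lowest NX library for Myh6 (7252 CPM), Ttn (757 CPM), Ryr2 (489 CPM), Cacna2d1 (52.0 CPM) and Hspa4l (29.6 CPM), and the highest for the cytosolic ribosomal protein score (0.28).

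In other libraries, NX saline replicate 2 was high for Mme (6.53 CPM) and NX saline replicate 3 for Cdk2 (9.97 CPM). NX saline replicate 3 was low for Ctc1 (7.15 CPM) and the proteasome score (−0.213). NX saline replicate 1 was low for Ephx1 (21.7 CPM), the shelterin and telomere maintenance score (−0.0956) and the Schwann and neuronal score (−0.62). Sham JV101 replicate 3 was low for Arntl (1.08 CPM), the immediate early score (−1.02) and the renin-angiotensin and steroid receptor score (−0.357). Sham saline replicate 3 was high for Adipoq (0.248 CPM) and sham saline replicate 2 for Zfp449 (8.14 CPM).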

How the results depend on the processing

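The averaged nephrectomy test called 0 genes under all 29 alternatives run for it, with smallest adjusted p values from 0.123 (DESeq2) to 1.00. DESeq2 called 1 gene in saline mice (Niban3, log2 difference −2.25, adjusted p = 0.00798), where edgeR called 0. The count at an unadjusted p under 0.05, 666 in the fit as reported, was 810 with DESeq2, 2086 with limma voom, 1546 with clock phase as a covariate, 281 without sham saline 2 and NX saline 3 together, and 268 and 314 with limma on log2 FPKM (pseudocounts 1 and 0.1), which placed 9547 and 9638 of 14412 genes on the higher side against 7440 in the fit as reported. The cause was not tested. Without a filter 1011 of 22794 genes reached it, and at a mean of 5 CPM 386 of 9019. Leaving out each library gave 364 to 2525.

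Of 114 genes examined under the alternatives, 112 kept the sign of their difference in each of them. Dbp was −0.042 with clock phase as a covariate, which is built from Dbp itself, and Terf1 was −0.153 with the non-myocyte score. List medians were less stable: 34 of 59 changed sign under at least 1 alternative, 15 of them with a median closer to 0 than 0.1 in the fit as reported. With the non-myocyte score as a covariate the medians of the sarcomere (0.06), ventricular (0.06), glycolysis (0.01), fibroblast (−0.05), macrophage (−0.07), apoptosis (−0.06) and aryl hydrocarbon receptor (−0.16) lists had the opposite sign, and hypertrophy had it without NX saline replicate 3 (0.03). Of 28 alternatives, 8 changed the sign for atrial markers, 7 for the interferon-gamma GTPases and 6 each for MHC class I, hypoxia and the nuclear respiratory chain. Replicate numbers did not pair the libraries: 8 of 18 same-numbered pairs correlated above 0.1 (range −0.745 to 0.413) and 2 of 12 libraries correlated best with their own number. With the replicate number as a block 0 genes passed, with 509 at an unadjusted p under 0.05 and a smallest adjusted p of 0.896 by edgeR. Depth limits genes near 1 CPM or less, such as Adipoq and LOC118567473, to a few counts per library.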

Other observations

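Several lists differed in direction between the injections. Of the 23 interferon-gamma GTPases and relatives, which defend cells against intracellular pathogens, 20 had opposite signs, with a median of −0.73 in saline mice and 0.83 in JV101 mice, and 5 reached an unadjusted p under 0.05 for the interaction (1.78% of all genes did). The list was highest in sham saline replicate 1 (score 1.90, 1437 CPM summed) and NX JV101 replicate 3 (1.48, 1227 CPM), against 112 to 551 CPM in the other 10 libraries. The averaged median of 0.07 was 0.83 without the former and −0.43 without the latter. Antigen presentation by MHC class I had 20 of 21 genes of opposite sign (−0.13 and 0.48). Of 40 interferon-stimulated genes 39 were higher on average, with a median of 0.02 with saline and 0.61 with JV101 (averaged 0.35, but 0.71 without sham saline replicate 1, 0.20 without NX saline replicate 3 and 0.04 with the non-myocyte score as a covariate), and Ifi27l2a, a small mitochondrial interferon-induced protein, ranged from 3.11 to 19.7 CPM in sham libraries (median 5.31) and from 7.099 to 21.02 in NX libraries (median 12.3). No interaction passed adjustment by edgeR's quasi-likelihood test (smallest adjusted p = 1.00).

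Markers of atrial cardiomyocytes (11 of 14 of opposite sign, medians −1.39 with saline and 0.95 with JV101), of neutrophils (8 of 11, 1.93 and −0.80) and of mesothelium (11 of 12, 0.40 and −0.34) also had opposite directions. The averaged medians changed sign without sham saline replicate 3 for atrial markers (−0.23 to 0.16) and without sham saline replicate 1 for neutrophil markers (0.60 to −0.06). Of 10 erythroid genes 6 passed the filter, and these were lower under both injections (median −1.05, but −0.52 without sham saline replicate 2, the highest sham library, −0.67 without sham JV101 replicate 2, and −0.46 with clock phase as a covariate), with summed levels of 32.0 to 748 CPM in sham and 49.9 to 253 CPM in NX libraries. Scgb1a1, the secretory protein of airway club cells, ranged from 0 to 42.7 CPM in sham libraries (median 1.702) and from 0 to 108 in NX libraries (median 18.7).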
